A study of Mus musculus with 6 samples.

Results

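The myosin light chain kinase family of the mouse has 4 genes, Mylk, Mylk2, Mylk3 and Mylk4, and all 4 were found by symbol among the 24421 genes of the deposited expression table. The family was chosen by the difference of Mylk4 between the groups compared here, and its other members by their names. They were measured in hearts of mouse embryos at E18.5, late in gestation, on a C57/Bl6 background. Poly(A) RNA was sequenced in 3 heart libraries labelled wildtype and 3 labelled Gas2l3 -/-, and no other allele, agent or treatment is named in the labels. Gas2l3 is a cytoskeletal linker between actin filaments and microtubules, and the series was made to study how heart muscle cells divide without it. How Gas2l3 was deleted is not given in the labels, and the libraries are only numbered. Whether they stand for different embryos is not stated, so the p-values below rest on a spread that may be technical.

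Myosin light chain kinases are switched on by calcium-bound calmodulin and add phosphate to the regulatory light chain at the neck of the myosin head. In smooth muscle this phosphorylation starts contraction, and in heart and skeletal muscle it raises the force that a given calcium signal gives. Mylk encodes the smooth muscle and non-muscle kinases and, from a start inside the gene, the small protein telokin, which holds no kinase domain. Mylk2 encodes the skeletal muscle kinase, Mylk3 the cardiac kinase that acts on the ventricular light chain Myl2, and Mylk4 a less studied member.

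The genes lie on 4 chromosomes (mm10, the same build as GRCm38; gene limits from GENCODE). Mylk is on chromosome 16 at 34745210 to 35002420, Mylk2 on chromosome 2 at 152911352 to 152923068, Mylk3 on chromosome 8 at 85324303 to 85386345 and Mylk4 on chromosome 13 at 32700834 to 32783954. Their coding sequences run to 5850, 1839, 2385 and 1161 bases, without the stop codon, in the longest annotated form of each. The sequences below are the 60 bases of Mylk3 coding sequence with the most matches in the other members, beside those matches, and are shown because they tell how far reads of one member could be mistaken for those of another. Capitals mark the 39 bases that are the same in all 4 genes.
Mylk: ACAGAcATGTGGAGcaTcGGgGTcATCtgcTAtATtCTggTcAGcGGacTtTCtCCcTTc
Mylk2: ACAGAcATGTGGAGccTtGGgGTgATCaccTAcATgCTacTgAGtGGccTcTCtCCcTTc
Mylk3: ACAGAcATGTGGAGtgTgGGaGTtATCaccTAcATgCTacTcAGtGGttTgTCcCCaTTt
Mylk4: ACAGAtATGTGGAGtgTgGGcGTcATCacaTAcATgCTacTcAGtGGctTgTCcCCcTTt

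Within these bases Mylk4 matched Mylk3 at 54 of 60, Mylk2 at 48 and Mylk at 42. In all 4 genes the stretch crosses an exon junction at the same place, 38 bases before it and 22 after. On the plus strand it covers chr16:34979258-34979295 and chr16:34986441-34986462 in Mylk, and chr2:152919416-152919453 and chr2:152920286-152920307 in Mylk2. On the minus strand it covers chr8:85336368-85336405 and chr8:85328662-85328683 in Mylk3, and chr13:32716656-32716693 and chr13:32715990-32716011 in Mylk4. Over whole annotated transcripts the longest run of identical bases between any pair of members was 21, between Mylk2 and Mylk4, and the shortest such maximum was 15. The read length is not given in the sources used here.

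Overlapping genes touched Mylk alone within exons. The antisense gene E130310I04Rik shares 548 exon bases with Mylk and had a mean of 0.631 FPKM. FPKM are fragments per kilobase of transcript, here scaled by a size factor for each library and not by its total reads. A second antisense gene, Gm21691, shares 224 exon bases with Mylk and was not analysed here. Whether strand was used in counting is not given, so reads of Mylk and of these partners cannot be told apart, nor can reads of telokin and of the kinases. The FPKM of Mylk were computed over a length of 7777 bases, close to the longest transcript of 7824.

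The start regions of Mylk3 and Mylk4 are printed because Mylk3 had the highest level of the family and Mylk4 the largest difference between the groups. Each window holds 250 bases before and 50 after an annotated start (RefSeq, GRCm38.p6, minus strand), at chr8:85380992-85381291 for Mylk3 and chr13:32783915-32784214 for Mylk4. Capitals mark matches, on either strand, to the E-box CANNTG, the GATA motif AGATAA and the MEF2 site.
Mylk3: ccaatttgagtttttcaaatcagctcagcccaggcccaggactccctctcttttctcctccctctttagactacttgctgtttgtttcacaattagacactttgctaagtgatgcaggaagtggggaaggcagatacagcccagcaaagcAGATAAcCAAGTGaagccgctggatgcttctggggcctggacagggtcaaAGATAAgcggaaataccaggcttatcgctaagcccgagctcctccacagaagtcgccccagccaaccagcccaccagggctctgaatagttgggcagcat
Mylk4: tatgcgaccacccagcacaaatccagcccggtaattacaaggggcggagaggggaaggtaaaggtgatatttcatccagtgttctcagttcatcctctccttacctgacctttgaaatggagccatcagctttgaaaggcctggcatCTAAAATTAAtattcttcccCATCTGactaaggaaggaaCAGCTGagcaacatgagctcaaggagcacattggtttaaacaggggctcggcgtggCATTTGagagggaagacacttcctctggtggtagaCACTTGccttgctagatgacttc

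The Mylk3 window held 2 GATA matches and 1 E-box, and the Mylk4 window 4 E-boxes and 1 MEF2 match. Of 32851 windows of the same 300 bases over all genes, 11.2% held the GATA motif, 72.3% an E-box and 3.19% the MEF2 site. The CArG box, found in 1.63% of windows, had 0 matches in these 2 windows. RefSeq also gave a second window for Mylk3 and 1 for Mylk, and these held 0 matches to the 4 motifs. A match is a run of letters in this window and no evidence that a factor binds there.

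Recovered reads came to between 3414257 and 7732674 per library. Gas2l3 itself was at 2.48 to 10.3 FPKM in the wildtype-labelled and 2.99 to 4.03 FPKM in the knockout-labelled libraries, so the groups overlapped and the gene does not check the labels. Heart muscle markers were abundant in each library, with Actc1 the highest of 8 general ones at a mean of 11271 FPKM. Of 16 markers of skeletal muscle, Myod1, Myf5 and Myh4 were listed at 0 in all 6 libraries and the highest, Tnni2, had a mean of 11.5 FPKM. Wildtype-labelled replicate 3 stood apart, with a mean correlation of 0.899 with the other libraries against 0.935 to 0.957 for the rest. Its deviations from the gene means followed GC content (r = 0.702 across genes, which are not independent replicates). Other libraries showed trends too. With GC content r was −0.474 in wildtype-labelled and −0.481 in knockout-labelled replicate 1, and with log length it ran from −0.417 to 0.355 over the libraries. As wildtype-labelled replicate 3 stood apart, the members' differences are also given without it. So are most medians of the pathway lists that it moves by over 1.5 times. The marker lists were not recomputed without it.

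Mylk3 was by far the most abundant member per length of transcript. The cardiac kinase gene stood at 115, 105 and 66.2 FPKM in the wildtype-labelled libraries, in the order of their numbers. Its knockout-labelled counterparts read 119, 86.5 and 101 FPKM. The lowest value was that of wildtype-labelled replicate 3, the other wildtype-labelled values lay within the range of the knockout-labelled ones, and the groups overlapped. Each value rests on 1311 to 2594 reads. Mylk3 ranked at place 820 among the 12121 genes that reached 1 FPKM in at least 3 libraries, and it made up 92.3% to 97.4% of the summed FPKM of the 4 members.

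Mylk, the gene of the smooth muscle and non-muscle kinases, read 2.67, 1.80 and 3.57 FPKM in the wildtype-labelled libraries, in the order of their numbers. The knockout-labelled replicates 1, 2 and 3 had 2.64, 1.90 and 3.47 FPKM. Libraries of the same replicate number lay side by side, replicate 3 high and replicate 2 low in both groups, and the groups covered nearly the same range. Between 78 and 187 reads per library were counted, and the gene ranked at place 10291.

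Mylk4 read 1.84, 0.745 and 1.25 FPKM in the wildtype-labelled libraries, in the order of their numbers. The knockout-labelled libraries read 4.93, 3.58 and 4.66 FPKM. Each knockout-labelled library lay above each wildtype-labelled one. The reads behind these values were 39, 32 and 43 in the wildtype-labelled and 180, 109 and 182 in the knockout-labelled libraries.

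Mylk2, the skeletal muscle kinase gene, was close to silent. Its wildtype-labelled values were 0.0905, 0.268 and 0.167 FPKM and its knockout-labelled values 0.158, 0.378 and 0.295 FPKM, which overlapped. Only 1 to 6 reads per library were counted, 10 in one group and 15 in the other, so no difference was detectable at this depth. Mylk2 was the member that did not pass the filter on low values, and the other 3 were tested with all genes.

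**Figure D1:**
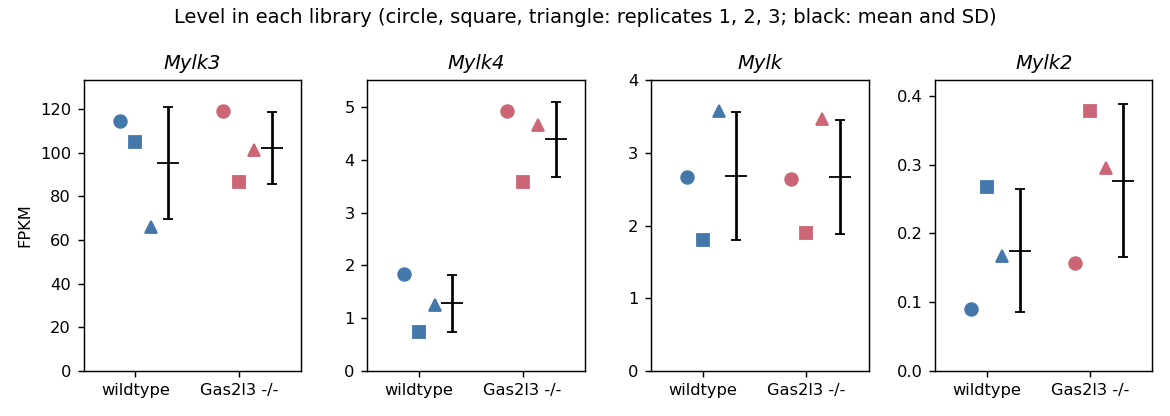
Level of each member in FPKM (vertical axes, a scale for each gene) in the 3 wildtype-labelled (blue) and 3 knockout-labelled (red) libraries, with the group mean and SD in black. Mylk4 is the panel in which the groups part, from 0.745 to 1.84 FPKM against 3.58 to 4.93 FPKM.

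The order of the levels was compared within libraries, as each library measures all 4 genes. Mylk3 exceeded Mylk by 4.97 ± 0.53 on the log2(FPKM + 0.5) scale (SD, n = 6), in 6 of 6 libraries. It exceeded Mylk2 by 7.08 ± 0.41, and Mylk exceeded Mylk2 by 2.11 ± 0.47, also in 6 of 6. Each of these 3 differences had p = 0.03125 in an exact sign-flip permutation test (two-sided), the smallest p that 6 libraries allow. The adjusted p over the 6 pairs of members was 0.0375. That adjustment counted the pairs with Mylk4, whose values chose the family, and their p-values helped to set it. The adjusted p is thus not free of that choice. The sign-flip test takes the libraries as independent. With libraries of the same replicate number flipped together, a comparison added after the data were seen, the exact p was 0.25, the smallest that 3 numbers allow, so these calls were lost under the block.

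Pairs with Mylk4 entered that adjustment, but as its values chose the family they are given here without a p. Mylk3 exceeded Mylk4 by 5.08 ± 0.84 (SD, n = 6) and Mylk4 exceeded Mylk2 by 2.01 ± 0.86, each in 6 of 6 libraries. Mylk4 minus Mylk came to −0.10 ± 0.87, with Mylk4 the higher in 3 of 6 libraries, so these neighbours had no fixed order over the study.

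The 3 libraries in which Mylk4 was higher than Mylk were the knockout-labelled ones. On that log2 scale the difference was −0.85 ± 0.39 (SD, n = 3) in the wildtype-labelled and 0.65 ± 0.23 in the knockout-labelled libraries. Of the FPKM that Mylk, Mylk2 and Mylk4 had together, Mylk4 held 40.1%, 26.5% and 25.0% in wildtype-labelled replicates 1, 2 and 3. Its share was 63.8%, 61.1% and 55.3% in the knockout-labelled replicates. Mylk held 64.5% ± 6.8 of it in the wildtype-labelled and 35.9% ± 4.6 in the knockout-labelled libraries.

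The level of Mylk3 was 62.3, 141 and 53.0 times that of Mylk4 in wildtype-labelled replicates 1, 2 and 3, per length. It was 24.2, 24.1 and 21.7 times that of Mylk4 in the knockout-labelled replicates, a narrower range that lay below the former. Of the whole family, Mylk4 made up 1.33% ± 0.56 of the FPKM in the wildtype-labelled and 4.01% ± 0.21 in the knockout-labelled libraries (SD, n = 3). These shares use the values by which the family was chosen and are a description, with no test.

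**Figure D2:**
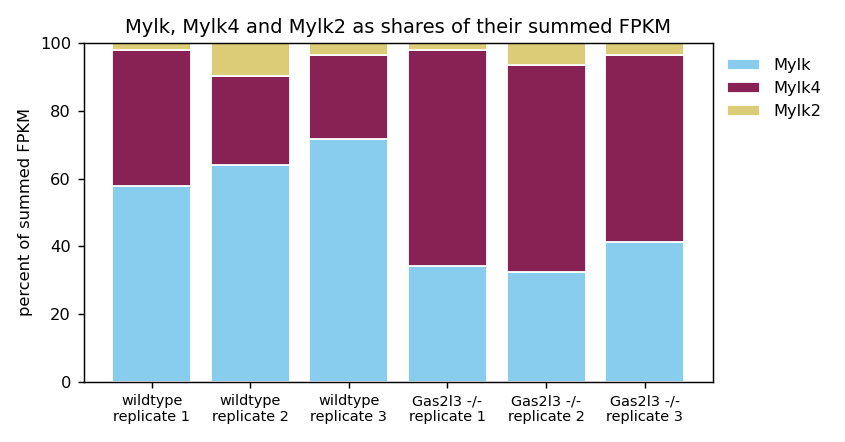
Shares of Mylk, Mylk4 and Mylk2 in their summed FPKM (vertical axis, percent), with a bar for each library. Mylk holds the larger share in the 3 wildtype-labelled bars, 58.0% to 71.6%, and Mylk4 in the 3 knockout-labelled bars, 55.3% to 63.8%.

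The comparison of the groups asked which genes differ when Gas2l3 is labelled as deleted. The family was proposed with the results of that comparison known, so the values of the members are given here without a test. Mylk4 had means of 1.28 ± 0.55 FPKM (SD, n = 3) in the wildtype-labelled and 4.39 ± 0.71 FPKM in the knockout-labelled libraries, a ratio of means of 3.44. On the log2(FPKM + 0.5) scale, which understates the change of low genes, the difference was 1.50 (SE 0.31), and between libraries of the same replicate number it was 1.21, 1.71 and 1.56.

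The other members showed no comparable gap. Mylk3 had means of 95.2 ± 25.6 and 102 ± 16.4 FPKM and a log2 difference of 0.13 (SE 0.32), which was −0.11 (SE 0.22) without wildtype-labelled replicate 3. Its differences within replicate numbers were 0.056, −0.28 and 0.61, in both directions. Mylk had means of 2.68 ± 0.89 and 2.67 ± 0.78 FPKM and a log2 difference of 0.0034 (SE 0.32), which was −0.21 without wildtype-labelled replicate 2 and 0.20 without replicate 3. Within replicate numbers Mylk differed by −0.013, 0.061 and −0.038. Differences between the members' responses were not tested.

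Of the 3 members tested, limma called 0 at an adjusted p under 0.05, where it called 0% of the 12121 genes tested, with 394 at an unadjusted p under 0.05. Voom on the recovered reads also called 0 genes. The authors' deposited table called Mylk4 higher, at 1.26 on the log2 scale with an SE of 0.285 and an adjusted p of 0.0235. It called 0.0572% of its 12243 genes higher and 0.0735% in either direction. The family was chosen by the difference of Mylk4, so the p of Mylk4 is no independent support for it. In the authors' deposited table Mylk3 had a log2 fold change of 0.081 and Mylk of −0.0012, each with an adjusted p of 0.998 or more, and Mylk2, marked there for its low count, had 0.17 with no adjusted p. Groups that did not overlap, with the knockout-labelled libraries higher, were seen for 1 member, Mylk4, and for 5.02% of all genes tested (9.76% in either direction).

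The difference of Mylk4, by which the family was chosen, was above 0 under the 15 alternatives that gave a value. It ran from 1.26 with a pseudocount of 1 to 1.92 with voom on the recovered reads. Settings that change only the SE or the genes tested, such as the replicate block, left it at 1.50 by construction. These values describe how the difference depends on the processing and are no independent support for it. Leaving out 1 library at a time gave 1.26 to 1.72, the ends coming from the loss of wildtype-labelled replicates 2 and 1, and 1.51 with replicate 3 of that group left out. After removal of GC and length trends, and with the replicate number as a block, it was 1.33 (SE 0.21). Those trends removed, Mylk4 stood at 0.87, 0.44 and 1.29 on the log2 scale in the wildtype-labelled and at 2.18, 2.11 and 2.29 in the knockout-labelled libraries, again without overlap.

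**Figure D3:**
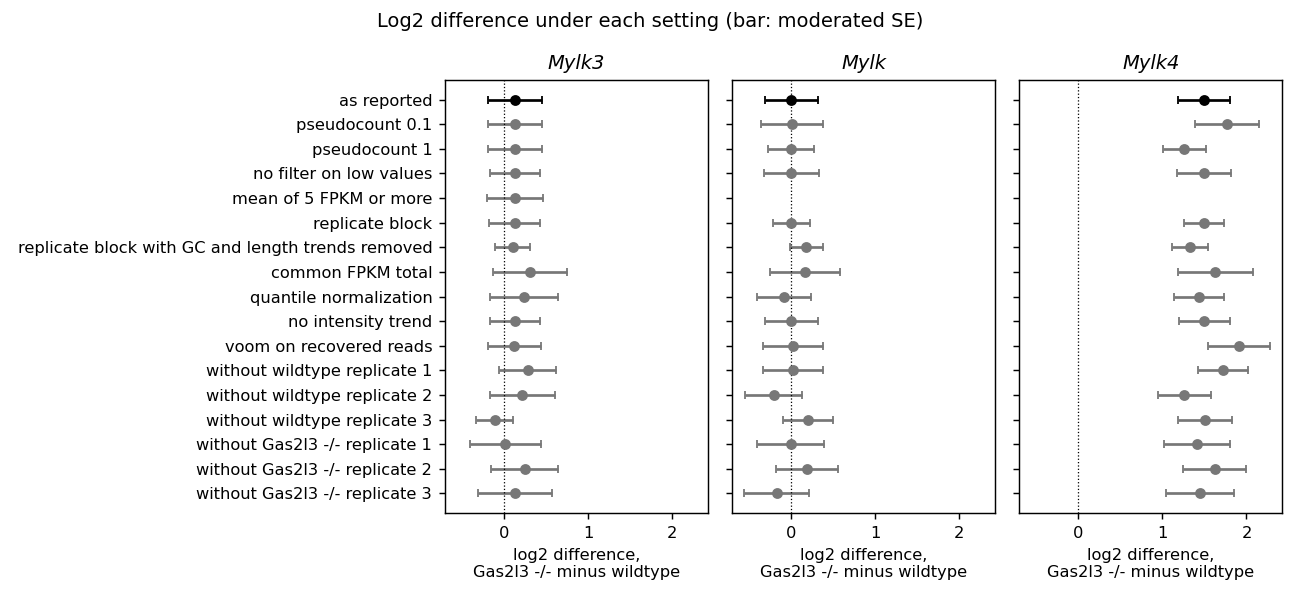
Log2 difference between the groups (horizontal axis, knockout-labelled minus wildtype-labelled, on the log2 scale) for Mylk3, Mylk and Mylk4 under each setting, with the moderated SE as bars. Mylk4 lies between 1.26 and 1.92 in each setting that kept it, and Mylk3 and Mylk lie near 0, between −0.21 and 0.31. Mylk and Mylk4 have no point where a mean of 5 FPKM was required.

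Markers of cell types moved with the groups in part, and their part in the values of Mylk4 was not tested. In bulk hearts fewer cells of a type and less RNA per cell cannot be told apart. Summed FPKM of 8 heart muscle markers were 22868 to 32627 in the wildtype-labelled and 20908 to 22750 in the knockout-labelled libraries, and 7 of the 8 had log2 differences below 0. Summed FPKM of 6 ventricular markers were 18020 to 43816 and 16557 to 23246, and 6 of 6 had log2 differences below 0, with a median of −0.53. The highest sum of each of these lists came from wildtype-labelled replicate 3. There the ventricular marker Myl3 was at 23894 FPKM, against 4857 and 8673 FPKM in wildtype-labelled replicates 1 and 2. The median and signs of the ventricular markers without that library were not computed. Of the ventricular markers, Irx4, a transcription factor, had groups that did not overlap, at 40.0, 46.6 and 81.7 FPKM against 32.9, 37.9 and 29.9 FPKM (lower without overlap: 4.74% of all genes tested). Summed FPKM of 10 markers of the atria were 2083 to 5274 and 6514 to 8558. That sum was carried by Nppa, the gene of atrial natriuretic peptide, at 1904 ± 759 and 5703 ± 1005 FPKM. Of the 9 atrial markers tested, 4 had log2 differences above 0 and 5 below. Bmp10, an atrial growth factor, was at 25.5, 13.3 and 9.82 FPKM in the wildtype-labelled and 71.0, 19.0 and 60.1 FPKM in the knockout-labelled libraries, while the atrial light chain gene Myl7 and sarcolipin (Sln) had lower means (log2 differences of −0.67, SE 0.63, and −1.59, SE 1.46).

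Mylk is the member known from smooth muscle, whose markers overlapped between the groups as a sum. The 8 smooth muscle markers summed to 451 to 826 FPKM in the wildtype-labelled and 409 to 719 FPKM in the knockout-labelled libraries, most of it Acta2, which fetal heart muscle also expresses. Myh11, the smooth muscle myosin heavy chain, was low, at 2.30, 0.358 and 1.99 FPKM against 0.468, 0.253 and 2.14 FPKM. Summed pericyte markers ran from 56.9 to 135 and from 89.6 to 117 FPKM. Of 8 markers each of endothelium, fibroblasts and macrophages, 6 of each list had log2 differences above 0. Groups did not overlap, knockout-labelled higher, for Emcn and Npr3 of the endothelial list, Tcf21 and Lum of the fibroblast list and Adgre1 and Lyz2 of the macrophage list, against 5.02% of all genes tested. The sums of these 3 lists overlapped between the groups, and their part in the values of Mylk4 was not tested either.

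The genes around the kinases were taken from 7 lists of 47 genes, of which Myl5 was not analysed here. Of the 43 tested, limma called 0 higher and 0 lower, with adjusted p of 0.966 or more, and the median log2 difference of all 12121 genes tested was −0.0089. A p that misses the threshold does not show that these genes did not differ. Counts of genes higher or lower in these lists are signs of the log2 difference, which for a few genes is opposite to that of the mean FPKM.

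The regulatory light chains are what the kinases phosphorylate. Of 8 listed genes 6 were tested, with 1 log2 difference above 0 and 5 below and a median of −0.26. The median was −0.026 without wildtype-labelled replicate 3, −0.49 without replicate 1 of that group and 0.069 with quantile normalization. The ventricular form Myl2 had 16186 ± 3395 FPKM in the wildtype-labelled and 12241 ± 1554 FPKM in the knockout-labelled libraries (−0.39, SE 0.59), with overlap. Myl9 of smooth muscle was at 1014 ± 320 and 1322 ± 270 FPKM (0.41, SE 0.43), Myl7 of the atria at 683 ± 404 and 435 ± 306 FPKM, and the non-muscle form Myl12a at 300 ± 90.8 and 289 ± 37.7 FPKM. Myl10 was listed at 0.

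The essential light chains sit beside them on the myosin neck and are not substrates of the kinases. Of 5 tested genes 1 had a log2 difference above 0 and 4 below, with a median of −0.12 that was 0.18 without wildtype-labelled replicate 3. Myl3 of the ventricle was at 12474 ± 10072 and 7120 ± 1931 FPKM, its wildtype spread being set by replicate 3 at 23894 FPKM. Myl4 was at 1430 ± 683 and 1326 ± 355 FPKM, Myl6 at 760 ± 349 and 690 ± 325 FPKM and Myl1 at 66.5 ± 78.6 and 113 ± 58.0 FPKM. The list's median changed sign in 6 of 16 alternatives.

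Calmodulin, the calcium sensor that activates the kinases, is made from several genes. Calm2 was at 163 ± 106 and 246 ± 92.5 FPKM (log2 difference 0.81, SE 0.58). Calm3 was at 363 ± 201 and 241 ± 44.4 FPKM (−0.45, SE 0.45). In wildtype-labelled replicate 3 Calm2 had its lowest value, 53.2 FPKM, and Calm3 its highest, 581 FPKM.

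The phosphatase that removes the phosphate, and its inhibitors, gave 3 log2 differences above 0 and 4 below among 7 tested genes. Their median of −0.051 was −0.11 without wildtype-labelled replicate 3 and ran from −0.21 to 0.093 as single libraries were left out. The catalytic subunit gene Ppp1cb was at 98.0 ± 43.1 and 110 ± 28.8 FPKM. Among the inhibitors, Ppp1r14c was at 140 ± 46.8 and 137 ± 12.5 FPKM and Ppp1r14b at 158 ± 113 and 90.4 ± 22.9 FPKM. The targeting subunit gene Ppp1r12c was at 43.5 ± 20.6 and 35.0 ± 5.2 FPKM, and Ppp1r14d was listed at 0.

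Other kinases that act on the light chain or its phosphatase were all tested, 3 of 10 with log2 differences above 0 and 7 below (median −0.093, or 0.020 without knockout-labelled replicate 2). Dapk3 was at 37.6 ± 21.3 and 24.8 ± 4.0 FPKM, Cdc42bpb at 24.7 ± 6.8 and 24.7 ± 4.4 FPKM, and Rock2 and Rock1 at 13.5 ± 0.85 and 12.6 ± 4.5 FPKM and at 9.65 ± 1.3 and 7.61 ± 3.0 FPKM. Dapk1 was the gene of this list whose groups did not overlap, against 5.02% of all genes tested, at 5.48, 7.14 and 5.45 FPKM and at 7.93, 8.60 and 8.10 FPKM (0.43, SE 0.23). It is named after its values were seen.

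The kinase domain of the family has relatives in giant muscle proteins. Speg was at 24.1 ± 7.9 and 16.3 ± 0.44 FPKM, Ttn at 15.0 ± 11.0 and 10.9 ± 3.8 FPKM and Trio at 7.75 ± 1.9 and 8.59 ± 1.2 FPKM. Of 5 such genes tested, 1 had a log2 difference above 0 and 4 below. Their median of −0.14 was −0.091 without wildtype-labelled replicate 3, 0.020 with GC and length trends removed, and −0.72 without wildtype-labelled replicate 2, in which Ttn had 3.71 FPKM.

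Regulators of contractile genes gave log2 differences below 0 for 7 of 7 tested genes, with a median of −0.23 that ran from −0.34 to −0.060 over 16 alternatives. Serum response factor (Srf) was at 91.4 ± 42.2 and 65.7 ± 7.1 FPKM and Mef2a at 44.6 ± 11.4 and 40.7 ± 10.1 FPKM. Groups did not overlap, knockout-labelled lower, for Mef2d at 41.6, 39.6 and 68.7 FPKM against 35.5, 31.6 and 35.2 FPKM and for Myocd, the coactivator myocardin, at 20.4 ± 4.1 and 15.4 ± 1.0 FPKM. Such groups were seen for 4.74% of all genes tested.

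**Figure D4:**
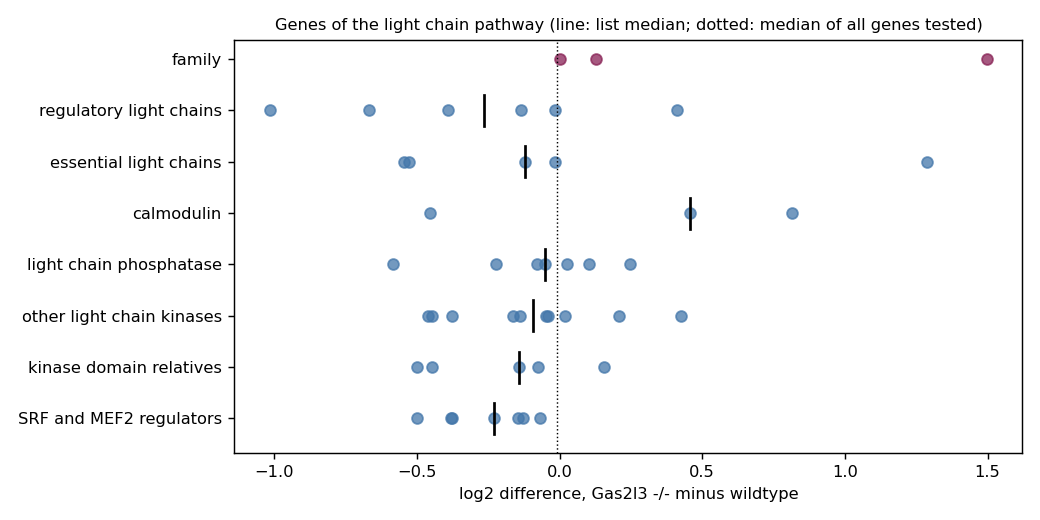
Log2 difference between the groups (horizontal axis, knockout-labelled minus wildtype-labelled) for each tested gene of the family and of the 7 lists, with list medians as black lines and the median of all genes tested dotted. The Mylk4 point at 1.50 lies to the right of all points of the lists, the nearest being Myl1 at 1.29 (SE 0.79). Mylk4 was chosen by its difference between these groups, so its place is a description.

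Likeness of pattern was measured for the 3 tested members as Pearson's r of log2(FPKM + 0.5) over the 6 libraries, against 11422 other named genes. The points share libraries, depth and GC trends, and with 6 of them the values are a description. The genes most like Mylk4 were Ptpn14, a tyrosine phosphatase (r = 0.991), Frem1, a basement membrane protein (r = 0.989), and Srpx (r = 0.988), and 16 genes passed 0.95. With the group means removed these values were 0.941, 0.970 and 0.922. Ptpn14 read 7.28, 5.52 and 6.28 FPKM in wildtype-labelled libraries and 9.52, 9.11 and 9.19 FPKM in the others. Frem1 read 1.39, 1.06 and 1.23 FPKM against 2.55, 2.27 and 2.36 FPKM.

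Mylk3 was most like Dennd6a (r = 0.9999), Hsd17b4, a peroxisomal enzyme of fatty acid breakdown (r = 0.996), and Ppfibp1 (r = 0.994), with 153 genes past 0.95. Mylk was most like Dhx35 (r = 0.992), Pbxip1 (r = 0.987) and Plxna4, a semaphorin receptor (r = 0.987), with 37 past 0.95. The members themselves were less alike, at r = −0.31 for Mylk and Mylk3, 0.23 for Mylk and Mylk4 and 0.31 for Mylk3 and Mylk4, or −0.32, 0.63 and 0.28 with the group means removed.

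**Figure D5:**
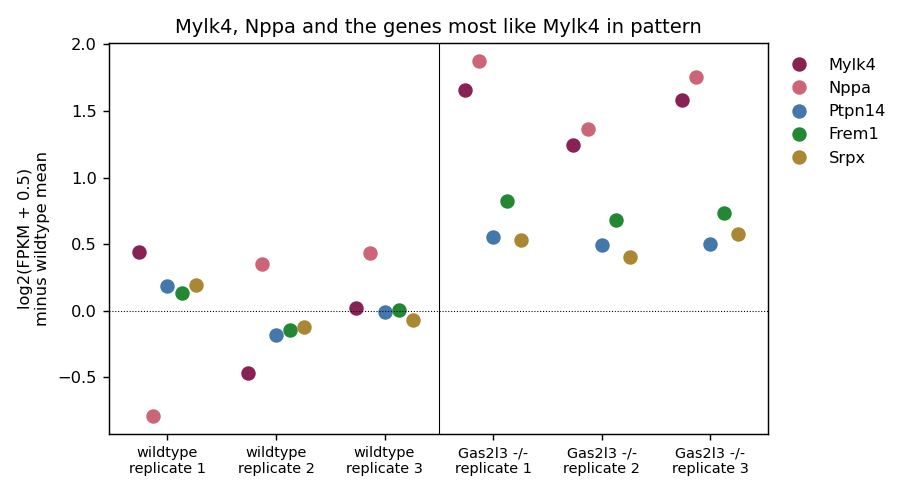
Log2(FPKM + 0.5) minus the wildtype mean (vertical axis) in each library for Mylk4, Nppa and the genes most like Mylk4 in pattern. Knockout-labelled points of the 5 genes lie above 0. For Mylk4, chosen by its difference, and for the genes picked by likeness to it over both groups, this follows from the choice. Nppa was called higher in the authors' deposited table and was picked with earlier results of these data known. Its place is therefore also a description. Among wildtype-labelled libraries Nppa is lowest in replicate 1, where Mylk4 is highest.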

How the data were processed

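Libraries were made from poly(A) RNA with the NEBNext Ultra kit, per the labels' protocols. FastQC, DESeq2 and mm10 are named, per the submitters' processing notes. Which aligner, counter and annotation were used is not given here. The deposited values are FPKM for each gene in each library, beside the authors' own comparison (log2 fold changes and p-values), per the file headers. Of 94235 values above 0, 100% came out as whole reads within 0.01 when FPKM were scaled by the authors' deposited mean normalized count per gene and by size factors read from genes with reads in 1 library. The main test was limma (version 3.58.1, R 4.3.3, with intensity trend, two-sided, Benjamini-Hochberg) on log2(FPKM + 0.5) for genes at 1 FPKM or more in at least 3 libraries. It was also run on simulated counts with a single dispersion and no replicate, GC or length effects. Its behaviour under such effects, which these libraries show, was not tested. Differences are knockout-labelled minus wildtype-labelled. Deviations from the group means correlated at 0.472, 0.443 and 0.186 for libraries of the same replicate number. Between different numbers they correlated at −0.396 to 0.072. The pairing was thus read from the data, not the labels. It was used for differences within replicate numbers and in the block alternatives, and the main tests did not pair libraries by number. Trends were removed by loess (span 0.3) on GC content, found for 96.6% of tested genes in GENCODE M21, and on length. The members and lists were chosen with earlier results of these data known. Genes named in each list were the 4 with the highest mean FPKM, of which some are not reported here; others were chosen after their values were seen.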

Additional observations from a re-analysis of the deposited data

How the results depend on the processing

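With the replicate block limma called 0 genes (729 had an unadjusted p below 0.05). The log2 difference of Mylk4 was 1.50 (SE 0.24), a value that a balanced block cannot move. For the order of the levels the block left the differences the same by construction (5.08, 4.97 and 7.08 for Mylk3 minus Mylk4, Mylk and Mylk2, 2.01 for Mylk4 and 2.11 for Mylk minus Mylk2). The block did not keep the calls on that order, and it changed no other call. Over the 17 alternatives limma called 0 genes higher and 0 lower, with 185 to 1467 at an unadjusted p under 0.05, the extremes coming from leaving out replicate 3 of the knockout-labelled and replicate 1 of the wildtype-labelled libraries. Rescaling to a common FPKM total moved the median of all genes to 0.15 and the differences of Mylk4, Mylk3 and Mylk to 1.63, 0.31 and 0.16. Leaving out 1 library left 5 for the order of the levels, too few to pass (smallest adjusted p 0.075). The differences then ran from 4.81 to 5.23 for Mylk3 minus Mylk4, 4.87 to 5.16 for Mylk3 minus Mylk, 6.98 to 7.17 for Mylk3 minus Mylk2, 1.80 to 2.27 for Mylk4 minus Mylk2 and 2.01 to 2.24 for Mylk minus Mylk2. Mylk4 minus Mylk ran from −0.28 to 0.12 and turned positive without wildtype-labelled replicate 2 (0.056) or 3 (0.12).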
